A study of Homo sapiens with 24 samples.

Results

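The EGFR family, its ligands, MET and EPHA2 were followed as mRNA across 24 RNA-Seq libraries labelled as 3 triple-negative breast cancer (TNBC) cell lines. The 10 genes were chosen by symbol, without use of their measured values: the receptors EGFR, ERBB2 and ERBB3, the ligands AREG, EREG, HBEGF, TGFA and BTC, and the receptor tyrosine kinases MET and EPHA2. All 10 were among the 60651 genes listed for the KIF20A depletion experiment, the 23792 for the overexpression experiment and the 18248 for HCC70, and 9 were among the 19283 listed for Hs578T. TGFA was not analysed in Hs578T.

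The study asked what distinguishes breast cancer stem cells (BCSCs) in TNBC and what KIF20A, a mitotic kinesin, does there. BCSCs had been sorted from Hs578T and HCC70 cells of genotype WT by flow cytometry as CD24-CD44+ and ALDH+, and cells lacking these markers were taken as non-BCSCs. Cells labelled MDA-MB-231 carried either a control sgRNA (sgCtrl) or KIF20A sgRNA #1 (KIF20A sg1, labelled a knockdown). In a separate experiment they carried either the empty control vector (EV) or, by their label, KIF20A overexpression (labelled OE libraries). The sgRNAs had been delivered by lentivirus. Each of the 8 conditions had 3 libraries, labelled as biological triplicates, and every condition pair formed its own batch. The promoters of the constructs, and whether the stable cells were pools or clones, are not given in the sources used here.

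EGFR, ERBB2 and ERBB3 are cell surface receptors that pair with each other. ERBB2 binds no known ligand and ERBB3 has little kinase activity, so both act mainly through a partner. AREG, EREG, HBEGF, TGFA and BTC are made as membrane-bound precursors, and the proteases ADAM10 and ADAM17 release them to bind EGFR. Active receptors recruit GRB2, SHC1 and SOS proteins, which switch on RAS, RAF and ERK, while PI3K and AKT form a parallel branch. MET is the receptor of hepatocyte growth factor and EPHA2 binds ephrin-A ligands. EGFR protein is frequently abundant in basal-like TNBC.

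In GRCh38 (GENCODE 44), EGFR spans chr7:55019017-55211628 and MET chr7:116672196-116798377, both on the plus strand. ERBB2 lies at chr17:39687914-39730426 and ERBB3 at chr12:56076799-56103505, also on the plus strand. Several ligand genes share a stretch of chromosome 4, with EREG at chr4:74365145-74388749 and AREG at chr4:74445136-74455005 on the plus strand and BTC at chr4:74744759-74794523 on the minus strand. HBEGF (chr5:140332843-140346603), TGFA (chr2:70447284-70554193) and EPHA2 (chr1:16124337-16156069) are on the minus strand. The values are sums over the exons of a gene. EGFR shares 186 exon bases with the antisense gene EGFR-AS1, ERBB2 shares 715 with PGAP3 and MIEN1 on the opposite strand, and ERBB3 shares 31 with a same-strand gene. Libraries were stranded, but whether counting used the strand is not given in the sources used here, so reads in those bases cannot be assigned with certainty.

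Promoter sequences are shown for the 4 members on which the results turn most: AREG and EREG, the ligands whose reads per library ran from 0 to 4305 and 3643, HBEGF, whose BCSC difference was called unequal between the sorted lines, and EPHA2, the highest member per transcript length in 5 of the 8 conditions. Each run covers 250 bases before to 50 after the start site (RefSeq, GRCh38.p14), 5′ to 3′ on the gene's strand, and capitals mark matches to the 4 motifs searched on both strands.
AREG, chr4:74444886-74445185, plus strand: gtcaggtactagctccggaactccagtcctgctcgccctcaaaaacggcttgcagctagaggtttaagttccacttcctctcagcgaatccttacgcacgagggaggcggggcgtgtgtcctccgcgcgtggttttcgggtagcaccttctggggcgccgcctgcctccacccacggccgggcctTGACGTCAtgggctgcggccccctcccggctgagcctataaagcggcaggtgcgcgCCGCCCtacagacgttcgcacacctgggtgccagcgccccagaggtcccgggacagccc
EREG, chr4:74364895-74365194, plus strand: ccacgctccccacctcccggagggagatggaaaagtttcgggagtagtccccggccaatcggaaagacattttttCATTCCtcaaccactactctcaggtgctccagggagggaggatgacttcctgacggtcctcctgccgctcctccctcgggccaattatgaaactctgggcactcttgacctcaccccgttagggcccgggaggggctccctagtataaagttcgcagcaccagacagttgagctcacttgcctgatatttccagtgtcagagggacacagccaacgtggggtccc
HBEGF, chr5:140346554-140346853, minus strand: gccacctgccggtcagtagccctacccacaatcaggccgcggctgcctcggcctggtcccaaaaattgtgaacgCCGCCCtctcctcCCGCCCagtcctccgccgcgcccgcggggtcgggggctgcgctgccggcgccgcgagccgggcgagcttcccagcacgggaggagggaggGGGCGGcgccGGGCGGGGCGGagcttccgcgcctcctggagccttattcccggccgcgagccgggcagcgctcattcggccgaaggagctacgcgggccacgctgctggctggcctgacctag
EPHA2, chr1:16156020-16156319, minus strand: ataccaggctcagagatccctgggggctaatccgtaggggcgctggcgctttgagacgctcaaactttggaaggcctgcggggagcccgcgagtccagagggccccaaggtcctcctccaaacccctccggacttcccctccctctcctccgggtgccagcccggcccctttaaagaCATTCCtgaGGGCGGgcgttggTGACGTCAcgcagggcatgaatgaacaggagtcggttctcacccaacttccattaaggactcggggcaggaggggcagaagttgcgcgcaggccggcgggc

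The motifs were the cAMP response element (CRE, TGACGTCA), the AP-1 motif TGANTCA, the TEAD motif GGAATG and the GC box GGGCGG, and the matches of different motifs shown did not overlap. Promoters were matched for 9 of the 10 members. The CRE letters stood in 2 of these 9, in AREG beginning 65 bases and in EPHA2 51 bases before the start site, against 1.85% of 35116 RefSeq promoters of the same length. GC box letters were in 7 of 9, against 45.0%, with 5 matches in HBEGF, 4 in TGFA and 3 each in EGFR and MET. The TEAD letters were in EREG and EPHA2 (14.0% of all promoters) and the AP-1 letters in ERBB2 (7.71%). These matches describe letters in a window and not factor binding.

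Whole reads recovered per library numbered 28330013 to 33890560 for Hs578T. For HCC70 they were 24984030 to 33986022. The libraries with sgRNAs were the deepest, at 41424338 to 51018667 reads, and those of the EV comparison the shallowest, at 15971297 to 22182293. Values are TPM, transcripts scaled to a fixed library total with length accounted for, in the sorted lines. They are reads divided by 1 factor per library (normalized reads) in the depletion experiment, and CPM, counts scaled to a fixed total without regard to length, in the overexpression experiment. KIF20A averaged 217 ± 2.54 TPM in Hs578T non-BCSCs and 297 ± 25.6 in BCSCs (SD, n = 3), and 71.4 ± 2.69 against 125 ± 3.48 in HCC70. It was 161 ± 10.9 normalized reads with sgCtrl and 119 ± 27.0 with KIF20A sg1, a log2 fold change of -0.45 (SE 0.16, limma adjusted P = 0.69). In the overexpression experiment it was 101, 143 and 124 CPM with EV and 1348, 269 and 896 CPM in the labelled OE libraries. The hormone receptors ESR1 and PGR, of which HCC70 has only 1 listed, summed to at most 2.44 TPM in the sorted lines and were at 0 reads in all 6 libraries of the depletion experiment. With EV they summed to 0 to 0.118 CPM and in labelled OE libraries to 0.0902 to 8.89 CPM, the highest value being 166 PGR reads in replicate 3.

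The 3 labelled OE libraries stood apart from every other library labelled MDA-MB-231 in the mRNAs that mark this line. CD44 was 788, 615 and 523 CPM with EV and 0.125, 0.316 and 1.23 CPM in these libraries. All 8 mesenchymal TNBC markers were called lower, beside 23.4% of all genes tested. Their summed level went from 7317 to 7995 CPM with EV to 406 to 864. VIM was 2653 ± 117 CPM with EV and 556 ± 214 in these libraries, and CAV1 706 ± 57.7 and 21.4 ± 6.75 (SD, n = 3). Of 13 kidney development factors, neurofilaments and IRS4, 12 were tested, and 10 were called higher and 1 lower, beside 46.2% of all genes called higher. Their sum went from 108 to 123 CPM to 1554 to 2124, and IRS4 made up most of it in labelled OE libraries. The gene called lower was PAX8 (log2 fold change -3.83, SE 0.27, limma adjusted P = 5.69e-06). Both lists were chosen with earlier results of these data known, so these counts describe the libraries and are no test. IRS4, an insulin receptor substrate, was at 0 reads in all EV and all depletion libraries and at 1750, 1219 and 1744 CPM in labelled OE libraries, whereas PAX2 reached 7.39 to 10.7 CPM and NEFM 12.2 to 23.6 CPM. The origin of the 3 labelled OE libraries is known by label only. Every value of the labelled OE comparison below stands beside this difference, whose part in the results was not tested.

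The order of the members by level set the lines apart. In Hs578T, a line with mesenchymal features, EPHA2 mRNA was the highest member, at 165.9, 168.3 and 177.4 TPM in non-BCSCs and 163.1, 177.9 and 165.2 in BCSCs. MET followed with 123.9, 123.7 and 113.1 TPM in non-BCSCs and 128.5, 123.5 and 131.3 in BCSCs. EGFR had 61.0, 61.8 and 61.0 TPM and 63.6, 62.0 and 66.9 TPM. No library of one of these genes reached into the range of the next gene in the order. ERBB2 (23.9 ± 1.42 TPM in non-BCSCs), HBEGF (11.2 ± 0.803), BTC (1.33 ± 0.0906) and ERBB3 (0.444 ± 0.0928) came next, again without overlap between neighbours.

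AREG and EREG were at or near 0 reads in Hs578T. AREG had 0 reads in all 3 non-BCSC libraries and 1, 1 and 0 reads in BCSCs, and EREG had 0, 2 and 0 reads and then 0, 0 and 1. Both were under the floor of 3 reads per library, so no fold is given for either. ERBB3 was measurable but low, with 31 to 44 reads per library in non-BCSCs and 46 to 50 in BCSCs.

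HCC70, a basal epithelial line, had EGFR and MET at the top. EGFR was 204.5, 202.4 and 194.9 TPM in non-BCSCs and 229.8, 224.1 and 233.1 in BCSCs. MET was 206.8, 188.5 and 195.5 TPM and 219.4, 211.3 and 232.5 TPM, overlapping with EGFR in either fraction. In non-BCSCs they were followed by ERBB3 (102 ± 5.93 TPM), ERBB2 (84.2 ± 8.18), EPHA2 (64.4 ± 1.74), TGFA (36.4 ± 0.307), HBEGF (8.42 ± 0.328), BTC (4.90 ± 0.426), EREG (2.24 ± 0.125) and AREG (0.410 ± 0.177), and from ERBB3 down no 2 neighbours overlapped. The same order held in BCSCs. TGFA was thus the highest of the 5 member ligands in HCC70, at 36.2 to 36.8 TPM in non-BCSCs and 38.1 to 40.2 in BCSCs.

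ERBB3 was thus at 0.359 to 0.612 TPM in Hs578T and at 95.6 to 127 TPM in HCC70, while EPHA2 was at 163 to 178 TPM and at 62.4 to 75.6 TPM. The 2 tables were normalized separately and each line was its own batch, so line and batch cannot be told apart and these levels were not tested against each other.

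**Figure D1:**
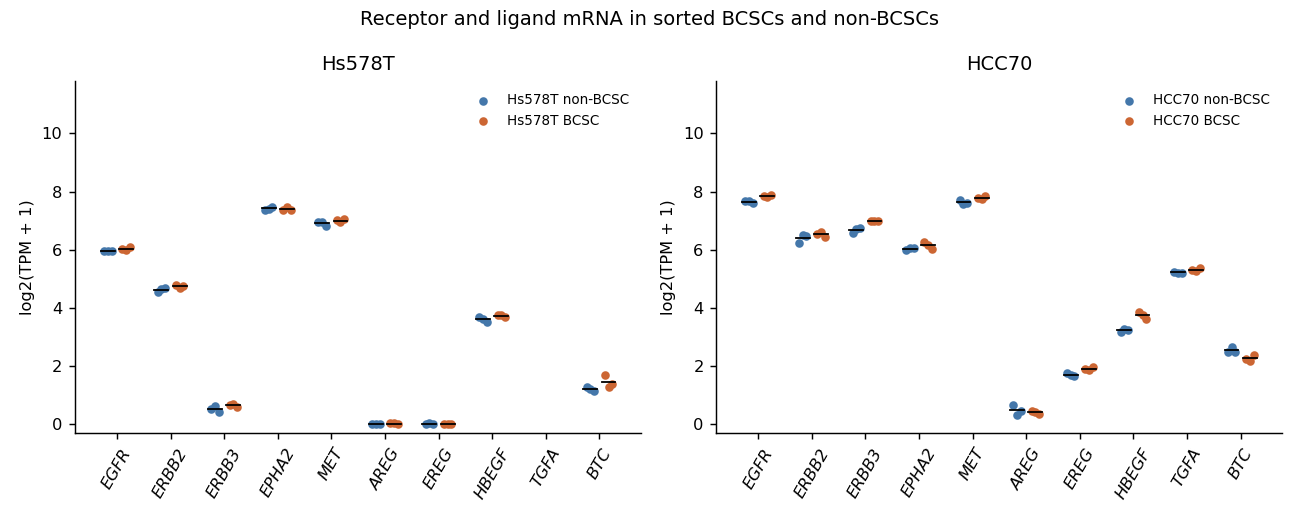
Levels of the 10 members as log2(TPM + 1) in Hs578T (left) and HCC70 (right), with a point for each library, non-BCSCs in blue, BCSCs in orange and black bars at the mean of 3 libraries. ERBB3, AREG and EREG lay near the bottom in Hs578T, ERBB3 lay among the highest members in HCC70, and no Hs578T value is drawn for TGFA.

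In MDA-MB-231, per kilobase of the canonical transcript (lengths from GENCODE 44), the order with sgCtrl was EPHA2 at 123 ± 4.13 normalized reads, HBEGF at 61.7 ± 3.93, MET at 56.2 ± 7.36, AREG at 54.8 ± 15.1, EGFR at 40.3 ± 3.95, ERBB2 at 26.1 ± 5.29, TGFA at 24.3 ± 0.788, EREG at 10.3 ± 2.01, ERBB3 at 1.51 ± 0.409 and BTC at 1.26 ± 0.220. HBEGF, MET, AREG and EGFR formed a chain of overlapping neighbours, as did ERBB2 with TGFA and ERBB3 with BTC. With EV, EPHA2 was again first at 173 ± 41.4 CPM per kilobase, ahead of EGFR at 51.6 ± 8.85 and HBEGF at 51.1 ± 7.60, which overlapped. In labelled OE libraries the first place went to ERBB2 at 9.97 ± 1.41 CPM per kilobase, overlapping with MET at 8.19 ± 1.26.

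EV libraries varied among themselves for the members of low level. EREG was 20.6, 7.35 and 38.2 CPM, BTC 0.571, 1.98 and 4.41 CPM and ERBB3 14.2, 10.3 and 2.53 CPM. EV replicate 3 was highest for EREG and BTC and lowest for ERBB3, and CD24 was 16.5, 4.35 and 75.8 CPM in the same order. By contrast, MET was 216.9, 219.0 and 201.5 CPM in these libraries. EPHA2, the highest member with EV, was 537.7, 648.1 and 859.3 CPM, so the spread was not confined to members of low level.

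**Figure D2:**
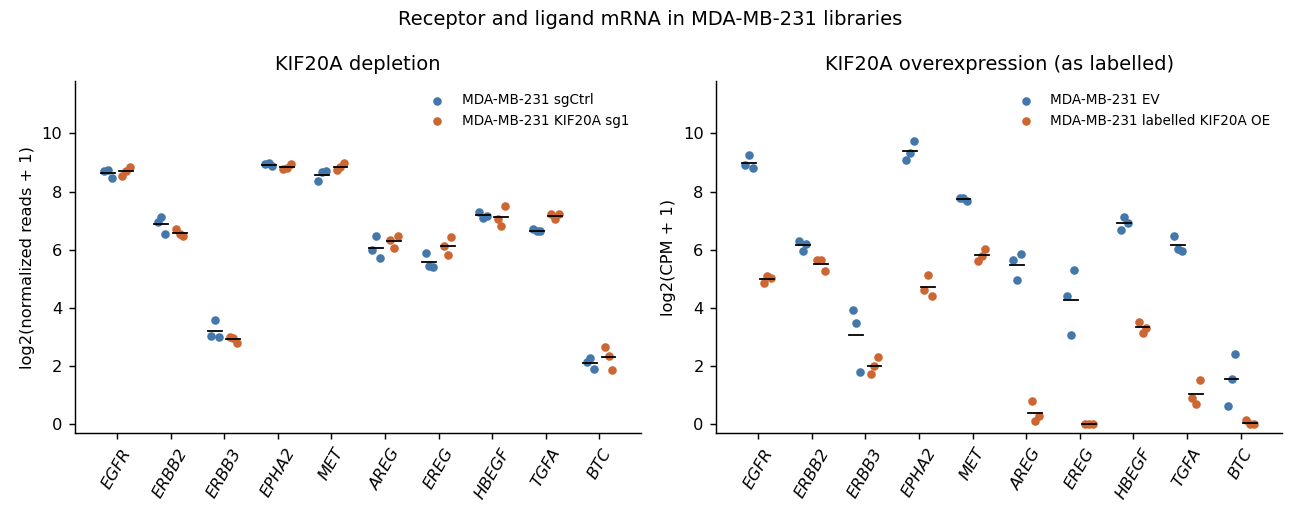
Levels of the members in libraries labelled MDA-MB-231 as log2(value + 1), left in normalized reads with sgCtrl (blue) and KIF20A sg1 (orange), right in CPM with EV (blue) and in labelled OE libraries (orange), with a point per library and black bars at the mean of 3. The groups lie close together on the left, and on the right 9 of the 10 members separate without overlap, with EREG at 0 in all 3 labelled OE libraries.

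HCC70 BCSCs had more HBEGF and ERBB3 mRNA than HCC70 non-BCSCs. HBEGF, heparin-binding EGF-like growth factor, was 8.04, 8.66 and 8.55 TPM in non-BCSCs and 13.6, 12.6 and 11.3 TPM in BCSCs. All 3 BCSC libraries were above all 3 non-BCSC libraries, and the mean rose 1.48-fold (log2 fold change 0.51, SE 0.082, limma adjusted P = 0.025). ERBB3, the partner receptor that signals mainly to PI3K, was 95.6, 104.1 and 107.0 TPM in non-BCSCs and 127.5, 126.0 and 125.2 TPM in BCSCs. The groups did not overlap and the mean rose 1.23-fold (log2 fold change 0.30, SE 0.057, limma adjusted P = 0.041). In such bulk samples, a change in the share of cells of a kind and a change in RNA per cell cannot be told apart.

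These were the 2 called of 9 members tested in HCC70, beside 2.83% of all 13218 genes tested. The call is an adjusted P under 0.05 by limma on log2(TPM + 1) with Benjamini-Hochberg adjustment over all genes with a mean of at least 1. AREG, at 7 to 15 reads per library, was under that mean. HBEGF lost its call when any 1 library other than BCSC replicate 3 was left out, with adjusted P from 0.0504 to 0.11, and ERBB3 lost it whichever of the 6 libraries was left out, with adjusted P from 0.052 to 0.18. With median of ratios scaling the adjusted P of ERBB3 was 0.071, and without the filter on low values it was 0.061 for ERBB3 and 0.063 for HBEGF. The increase itself stayed between 0.45 and 0.58 on the log2 scale for HBEGF and between 0.26 and 0.34 for ERBB3 with any 1 library left out.

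Most of the other members also lay higher in HCC70 BCSCs without passing the test. EGFR had a log2 fold change of 0.19 (SE 0.049, adjusted P = 0.078), with no overlap between groups, and an adjusted P of 0.043 with DESeq2. MET, with 0.17 (SE 0.060, adjusted P = 0.15), EREG, with 0.21 (SE 0.094, adjusted P = 0.22), and TGFA, with 0.091 (SE 0.051, adjusted P = 0.32), also had groups that did not overlap. BTC, betacellulin, was the exception in sign, at 4.65, 5.39 and 4.65 TPM in non-BCSCs and 3.76, 3.54 and 4.19 TPM in BCSCs (log2 fold change -0.29, SE 0.096, adjusted P = 0.13). ERBB2 and EPHA2 overlapped between the fractions, with log2 fold changes of 0.13 and 0.12. In all, 7 of the 9 members did not overlap, beside 30.9% of all genes tested, and their median log2 fold change was 0.17 beside 0.024 over all genes. With 3 against 3 libraries a two-sided exact permutation test of a single gene cannot go below P = 0.1, which is the value of each gene whose groups did not overlap.

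Markers of cell division moved with the same fractions. Of 10 G2/M genes, 9 were called higher in HCC70 BCSCs, beside 2.83% of all genes called. Their sum went from 913 to 966 TPM in non-BCSCs to 1385 to 1482 in BCSCs. In Hs578T, 8 of 10 were called higher (1319 to 1401 and 1682 to 1780 TPM), beside 7.15% of all genes called. The G2/M list was chosen with earlier results of these data known. CD24, which the sort used, was 857 ± 47.7 TPM in HCC70 non-BCSCs and 692 ± 30.0 in BCSCs (adjusted P = 0.054). Their part in the differences of HBEGF and ERBB3 was not tested.

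In Hs578T none of the 6 members tested was called, beside 7.15% of all 13324 genes tested (386 higher and 567 lower, or 620 and 573 with median of ratios), and 2993 genes had an unadjusted P under 0.05. HBEGF was 11.9, 11.4 and 10.4 TPM in non-BCSCs and 12.4, 12.6 and 11.9 TPM in BCSCs, so that the fractions overlapped (log2 fold change 0.12, SE 0.063, adjusted P = 0.30). EGFR did not overlap between the fractions but differed by 0.065 on the log2 scale (SE 0.044, adjusted P = 0.43). BTC was 1.43, 1.33 and 1.25 TPM and 2.23, 1.43 and 1.61 TPM, on 22 to 38 reads per library, with a log2 fold change of 0.23 (SE 0.13, adjusted P = 0.33). EGFR and BTC were the 2 of 6 members without overlap, beside 29.0% of all genes. MET, ERBB2 and EPHA2 had log2 fold changes of 0.088, 0.11 and -0.016, with SE of 0.052, 0.058 and 0.051. ERBB3, AREG and EREG were under the mean of 1 TPM. edgeR and DESeq2 on recovered reads also called 0 members. Of the genes tied to the sort, ALDH1A3, an aldehyde dehydrogenase, went from 289 ± 8.35 to 706 ± 4.32 TPM (log2 fold change 1.29, adjusted P = 8.39e-06). CD24 and CD44, the other sort markers, were not called there, with log2 fold changes of -0.050 (adjusted P = 0.72) and 0.052 (adjusted P = 0.51). In HCC70, ALDH1A3, ALDH1A1 and CD44 were not called, with log2 fold changes of 0.17, 0.13 and 0.042 (limma adjusted P = 0.18, 0.16 and 0.79).

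The difference between the lines was tested directly in 1 model of the 12 sorted libraries. The BCSC difference of HBEGF was larger in HCC70 than in Hs578T by 0.39 on the log2 scale (SE 0.10, limma adjusted P = 0.043), 1 of 6 members called beside 7.11% of 11668 genes (656 higher and 174 lower, or 403 and 333 with median of ratios). This call held when Hs578T non-BCSC replicate 3 or HCC70 BCSC replicate 3 was left out and not without any 1 of the other 10 libraries, with adjusted P from 0.052 to 0.11 in those, and its adjusted P was 0.070 with median of ratios scaling. BTC had the opposite sign in the lines, a difference of -0.52 (SE 0.16, adjusted P = 0.072). EGFR, EPHA2, MET and ERBB2 differed by 0.12, 0.14, 0.078 and 0.018 with adjusted P of 0.20, 0.31, 0.56 and 0.94. Line and batch cannot be told apart here.

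**Figure D3:**
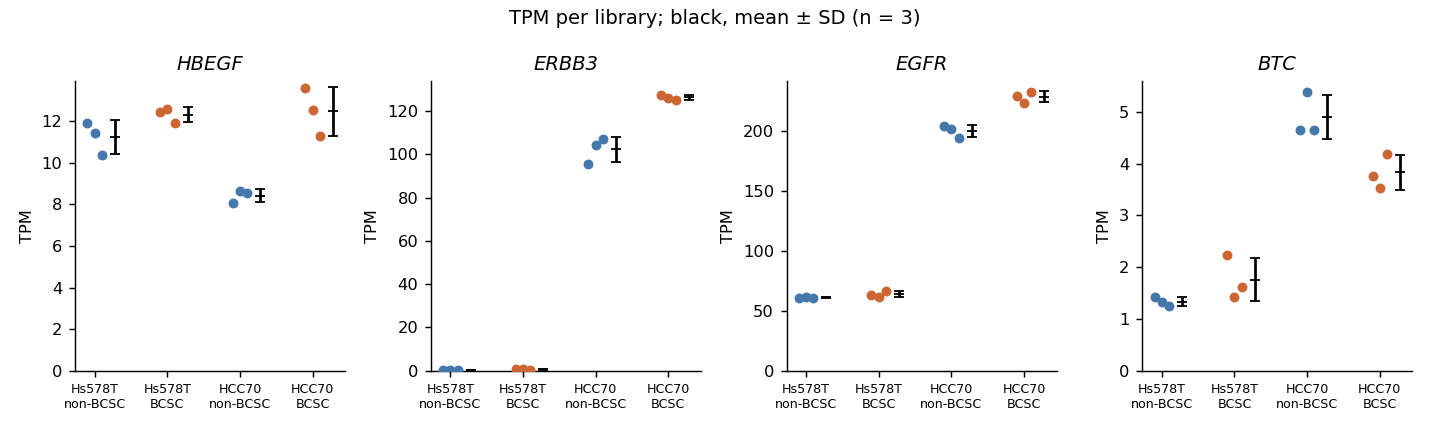
TPM per library of HBEGF, ERBB3, EGFR and BTC in the 4 sorted conditions, on axes that start at 0, with non-BCSCs in blue, BCSCs in orange and the mean ± SD (n = 3) in black. HBEGF separates the fractions in HCC70 and overlaps in Hs578T, and ERBB3 is near 0 in Hs578T beside 95.6 to 127 TPM in HCC70.

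Depletion of KIF20A was the next comparison, and no member passed the test. TGFA, transforming growth factor alpha, was 103.9, 98.3 and 98.2 normalized reads with sgCtrl and 150.4, 132.1 and 149.7 with KIF20A sg1. The groups did not overlap (ratio of means 1.44, log2 fold change 0.52, SE 0.11, unadjusted P = 0.000803), but the limma adjusted P was 0.69, and it was 0.057 with DESeq2. EREG, epiregulin, was 58.2, 42.9 and 41.5 normalized reads and then 69.8, 56.0 and 86.9, with a log2 fold change of 0.56 (SE 0.18, adjusted P = 0.69) and overlapping groups. AREG, amphiregulin, was 62.6, 88.2 and 52.0 and then 80.8, 66.3 and 87.3, again overlapping (log2 fold change 0.23, SE 0.18, adjusted P = 0.79).

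Among the receptors, MET was 325.6, 409.5 and 415.4 normalized reads with sgCtrl and 430.2, 456.8 and 499.9 with KIF20A sg1, without overlap (log2 fold change 0.27, SE 0.14, adjusted P = 0.69). ERBB3 was 7.26, 11.1 and 7.00 and then 6.96, 6.81 and 6.03, the only other pair without overlap and the lower one with KIF20A sg1 (log2 fold change -0.29, SE 0.19, adjusted P = 0.74). EGFR was 412.7, 429.5 and 355.0 and then 372.0, 418.6 and 460.8, with a log2 fold change of 0.063 (SE 0.14). HBEGF, EPHA2, BTC and ERBB2 had log2 fold changes of -0.063, -0.069, 0.20 and -0.31, each with overlapping groups. In all, 3 of 10 members did not overlap, beside 13.0% of all genes tested.

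Of all 12852 genes tested in the depletion experiment, 0% passed an adjusted P of 0.05 with limma, 899 had an unadjusted P under 0.05, edgeR called 0 and DESeq2 11. None of the 11 was a member. Without sgCtrl replicate 3 the limma count was 144 genes and without KIF20A sg1 replicate 2 it was 5, and no member was called in any of the 6 fits that left out a library.

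**Figure D4:**
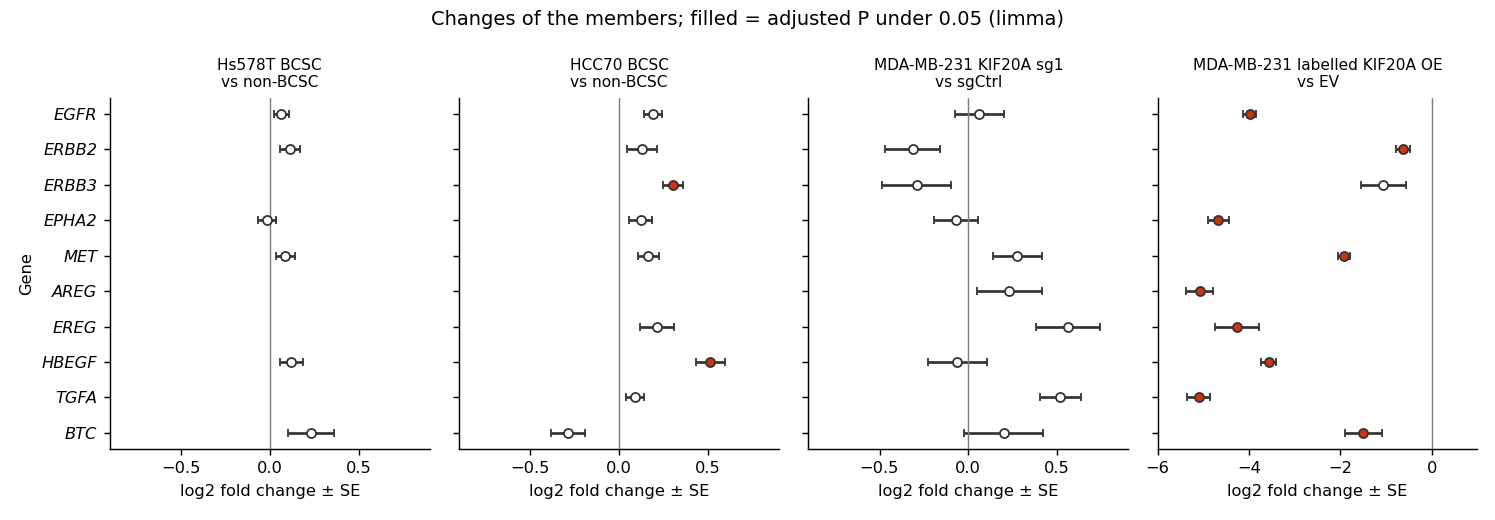
Log2 fold change ± SE of each member tested in the 4 comparisons, as points filled where the limma adjusted P was under 0.05, with the first 3 panels on 1 scale and the labelled OE panel on a wider one. HBEGF and ERBB3 are filled in HCC70, none in Hs578T or with KIF20A sg1, and 9 of 10 members in the labelled OE comparison, all left of 0.

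In labelled OE libraries, 9 of the 10 members were called lower than with EV, beside 23.4% of all 15265 genes called lower, 46.2% called higher and 69.7% called in either direction. The members' median log2 fold change was -3.78, beside 0.37 over all genes. That shift of the median moves the split of calls. It was 7055 higher and 3579 lower as deposited and 5218 higher and 4968 lower after median of ratios scaling, which put the median of all genes at 0.038. All 10 members were lower under both scalings, and ERBB3 was called as well with median of ratios. Groups did not overlap for 9 members, beside 74.1% of all genes.

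The receptors fell to different extents. EGFR was 477.6, 610.8 and 445.6 CPM with EV and 28.0, 33.2 and 32.0 CPM in labelled OE libraries, 16.5-fold lower (log2 fold change -3.99, SE 0.15, limma adjusted P = 2.03e-07). EPHA2 was 537.7, 648.1 and 859.3 CPM and then 23.5, 33.8 and 20.3 CPM, 26.4-fold lower (log2 fold change -4.67, SE 0.22, adjusted P = 7.91e-07). MET was 216.9, 219.0 and 201.5 CPM and then 48.0, 54.5 and 65.0 CPM, 3.80-fold lower (log2 fold change -1.92, SE 0.13, adjusted P = 5.86e-06). All 3 were separated by a wide gap between the groups.

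ERBB2, the co-receptor without a known ligand, changed least among the called members. It was 78.8, 61.9 and 72.2 CPM with EV and 48.8, 49.5 and 38.1 CPM in labelled OE libraries, 1.56-fold lower (log2 fold change -0.63, SE 0.15, adjusted P = 0.0060). ERBB3 was not called, at 14.2, 10.3 and 2.53 CPM and then 2.32, 3.07 and 3.96 CPM (log2 fold change -1.06, SE 0.50, adjusted P = 0.087). Its overlap rested on EV replicate 3, without which the log2 fold change was -1.70 with an adjusted P of 7.99e-04. The adjusted P of ERBB3 was 0.048 with median of ratios scaling, 0.023 with edgeR and 0.0032 with DESeq2.

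AREG and TGFA had the lowest fitted log2 fold changes of the members. AREG was 49.3, 30.4 and 56.3 CPM with EV and 0.751, 0.0902 and 0.214 CPM, on 12, 2 and 4 reads, in labelled OE libraries (log2 fold change -5.08, SE 0.29, adjusted P = 1.99e-06). TGFA was 87.5, 63.9 and 61.4 CPM and then 0.877, 0.631 and 1.87 CPM, 62.9-fold lower (log2 fold change -5.10, SE 0.26, adjusted P = 1.05e-06). HBEGF was 102.8, 138.7 and 120.0 CPM and then 10.6, 7.93 and 9.05 CPM, 13.1-fold lower (log2 fold change -3.57, SE 0.17, adjusted P = 6.91e-07). No ligand had a library of 1 group within the range of the other.

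EREG had 432, 152 and 650 reads with EV and 0 reads in each labelled OE library. Against a floor of 3 reads over the group it was at least 398-fold lower (limma adjusted P = 9.83e-05). BTC had 12, 41 and 75 reads and then 2, 0 and 0 reads, a ratio of pooled rates of 62.0 with a 95% exact counting interval of 16.8 to 517, which covers counting error only (limma adjusted P = 0.0095).

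Of the 77 other genes of the pathway, in 6 lists, 70 were tested in the labelled OE comparison, and 17 were called higher and 37 lower, 77.1% in all beside 69.7% of all genes. Of all genes, 46.2% were called higher and 23.4% lower, the background for each list. ERK-responsive genes had 9 of 10 called lower and 0 higher, with a median log2 fold change of -5.00, among them PHLDA1 (-7.14, SE 0.16, adjusted P = 4.17e-08) and the AP-1 subunit FOSL1 (-6.92, SE 0.20, adjusted P = 9.97e-08). FOS, an immediate early gene, was at 17.9 ± 10.6 CPM with EV and 20.1 ± 3.09 in labelled OE libraries. Negative regulators had 11 of 15 called lower and 3 higher, with the ERK phosphatase DUSP6 (-7.87, SE 0.18) and the feedback inhibitor SPRY4 (-7.64, SE 0.16) at one end and LRIG1 (2.02, SE 0.37) and LRIG3 (1.34, SE 0.19), which restrain receptor tyrosine kinases, at the other. DUSP6 was 378, 380 and 498 CPM with EV and 0.564, 1.08 and 0.750 CPM in labelled OE libraries.

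Of the ligand processing genes, 6 of 8 tested were called lower and 0 higher, led by SPINT2 (-3.50, SE 0.52, adjusted P = 0.089 with DESeq2 against 4.34e-04 with limma) and SPINT1 (-2.01, SE 0.26), inhibitors of the proteases that activate hepatocyte growth factor. Among the other receptors and ligands, the neuregulin gene NRG1, whose product binds ERBB3, went from 72.9, 48.1 and 29.9 CPM to 0.125, 0.135 and 0.268 CPM (log2 fold change -5.36, SE 0.31). MST1R, a receptor related to MET, changed by -3.64 (SE 0.25). ERBB4, the remaining family member, had 2, 0 and 0 reads with EV and 32, 80 and 125 reads in labelled OE libraries (log2 fold change 2.20, SE 0.32), and MST1, the ligand of MST1R, rose by 2.04 (SE 0.29). Adaptors and kinases had 8 of 26 called higher and 8 lower, with a median of 0.035 beside 0.37 over all genes. MAPK3 (1.46, SE 0.29) and CRKL (1.22, SE 0.11) rose most and GAB2 (-1.59, SE 0.31) and SOS2 (-1.47, SE 0.14) fell most. Ephrin-A genes had 3 of 5 called higher, with EFNA2 at 1.95 (SE 0.21) and EFNA1 at 1.24 (SE 0.39), and EFNA5 lower at -0.58 (SE 0.18). The EFNA1 call was lost with edgeR, with DESeq2 and with median of ratios scaling, where its adjusted P was 0.19, 0.18 and 0.077. It was also lost when any 1 library other than EV replicate 1 was left out, with adjusted P of up to 0.068. EFNA5 lost its call when EV replicate 1 or 3 or labelled OE replicate 1 or 3 was left out, with adjusted P from 0.052 to 0.067.

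In HCC70 BCSCs, 3 of 65 tested pathway genes were called, all higher. SOCS3, a feedback inhibitor of cytokine and receptor signalling, was 13.7, 15.5 and 15.2 TPM in non-BCSCs and 21.2, 21.9 and 20.3 TPM in BCSCs (log2 fold change 0.49, SE 0.069, limma adjusted P = 0.016). SPINT1 (0.33, SE 0.067, adjusted P = 0.046) and the EPHA2 ligand EFNA1 (0.29, SE 0.058, adjusted P = 0.046) were the others. SPINT1 and EFNA1 lost the call whichever library was left out, with adjusted P of up to 0.16 and 0.20, and with median of ratios (0.094 and 0.078), and SOCS3 lost it without any 1 of the 3 BCSC libraries, with adjusted P from 0.054 to 0.093. The share of pathway genes called was 4.62%, beside 2.83% of all genes.

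In Hs578T BCSCs, 8 of 65 tested pathway genes were called, 2 higher and 6 lower, a share of 12.3% beside 7.15% of all genes. ETV4, a transcription factor gene that ERK induces, was 5.25, 5.59 and 6.07 TPM in non-BCSCs and 8.54, 8.08 and 8.66 TPM in BCSCs (log2 fold change 0.51, SE 0.068, limma adjusted P = 0.0056). PHLDA1 (-0.35, SE 0.052, adjusted P = 0.0087) and FOS (-0.28, SE 0.045, adjusted P = 0.012), of the same list, fell. Of the negative regulators LRIG1 rose by 0.31 (SE 0.058, adjusted P = 0.021), while SPRY1 (-0.34, SE 0.051, adjusted P = 0.0092) and LRIG3 (-0.28, SE 0.057, adjusted P = 0.025) fell. PIK3R1, the regulatory subunit of PI3K, fell by 0.31 on the log2 scale (SE 0.055, adjusted P = 0.017). ETV4 kept its call with each library left out. Without non-BCSC replicate 2, the other 6 of these genes lost theirs, with adjusted P from 0.053 for PHLDA1 to 0.12 for LRIG3. Without BCSC replicate 1, FOS, LRIG1, LRIG3 and PIK3R1 lost the call, with adjusted P from 0.063 to 0.093. LRIG1, LRIG3 and PIK3R1 also lost it without non-BCSC replicate 1 (0.065 to 0.079). So did LRIG1 and LRIG3 without non-BCSC replicate 3 (0.064 and 0.061), and LRIG1 without BCSC replicate 3 (0.056). No pathway gene was called with KIF20A sg1, of 66 tested.

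**Figure D5:**
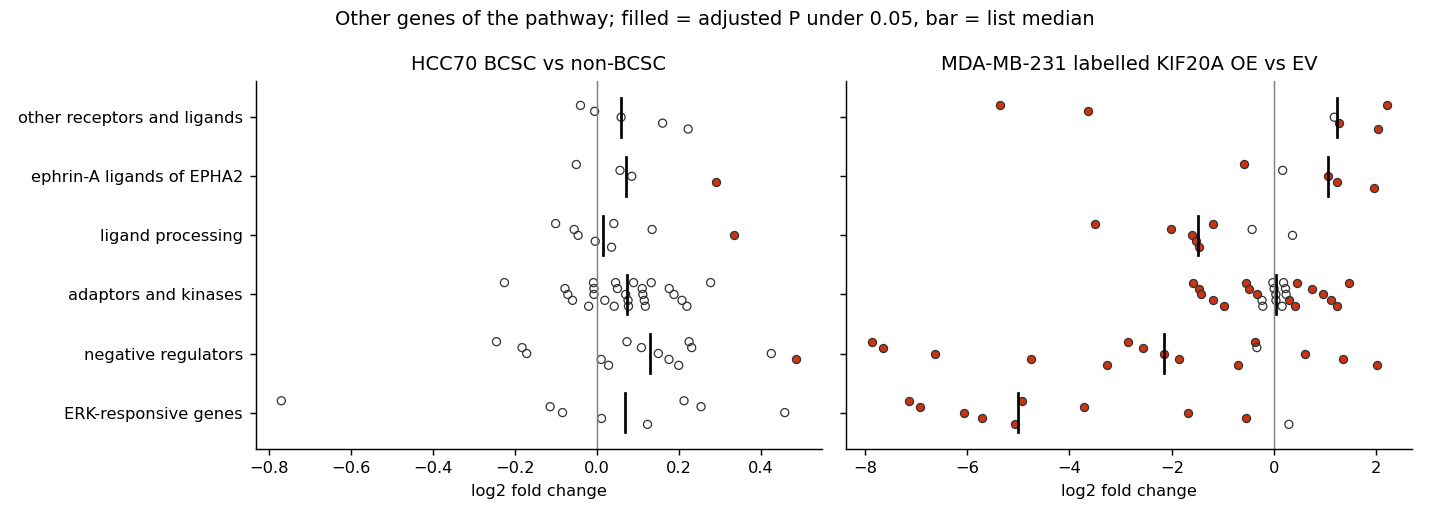
Log2 fold change of each tested gene in 6 pathway lists for HCC70 BCSCs against non-BCSCs (left) and labelled OE against EV (right), filled where the limma adjusted P was under 0.05, with black bars at the list median and a separate scale in each panel. On the right the ERK-responsive genes have a median of -5.00 and the adaptors and kinases one of 0.035.

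The genes whose pattern was most like that of a member were sought among 9280 genes with a mean of at least 1 in all 4 tables, over 24 libraries, as Pearson's r of log2(value + 1) minus the mean of each table. Genes most like EGFR included ME3 (r = 0.996) and KRT80 (0.994), EPHA2 was most like WWC3 (0.995), DUSP6 (0.994) and C2CD2 (0.994), and MET was most like ARHGAP18, ARHGEF28 and EPG5 (0.982 each). AREG was under the mean of 1 in the sorted lines and was not compared. These values share the 6 libraries of the overexpression experiment, which spread furthest. Over the other 18 libraries, a choice made after seeing the data, EGFR was most like SMAP2 (0.950), PPFIA1 (0.898) and JAG1 (0.866), MET most like EXPH5 (0.922), APBB2 (0.915) and CCSAP (0.894), and EPHA2 most like ZNF777 (0.829), ABHD11 (0.794) and TSEN54 (0.765). None of the genes named over 24 libraries was among these.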

How the data were processed

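Stranded, poly-A selected, paired-end RNA-Seq had been aligned by the authors to GRCh38, and the submitters' processing notes list HISAT2 2.0.5 and featureCounts 1.5.0-p3. The authors deposited TPM for the sorted lines, a signal of reads divided by 1 factor per library (named CPM) for the depletion experiment, and CPM for the overexpression experiment. Whole reads were recovered from the ratios and steps of these values and used only for depth and count models; 100% of values in both MDA-MB-231 tables came out whole within 0.1, and in the sorted lines the value of 1 read could not be restored for 2 of 17148 shared genes.

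Genes with a mean of at least 1 were tested per comparison by limma 3.58.1 with trend on log2(value + 1), two-sided, with Benjamini-Hochberg adjustment. Such fold changes understate those of low genes. The scripts were tested on simulated data with seeded changes, which does not measure the power of these comparisons. Count models of the recovered reads (DESeq2 1.42.0, edgeR 4.0.16), median of ratios scaling, filters and a pseudocount of 0.1 were alternatives. All members were named, with up to 2 genes that rose and 2 that fell per list and comparison. Members were chosen by symbol and the pathway lists from general knowledge of the pathway. The marker lists, among them the G2/M, mesenchymal and kidney development genes, were chosen with earlier results of these data known. Replicates are triplicates by label; P values measure only the spread between them. RefSeq promoters came from GRCh38.p14. A gene among those most like EGFR is not reported here.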

Additional observations from a re-analysis of the deposited data

Results flagged for a closer look

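Differences between BCSCs and non-BCSCs were of unequal size in HCC70 and Hs578T, by the limma interaction test with Benjamini-Hochberg adjustment, for HBEGF (larger in HCC70 by 0.39 on the log2 scale, adjusted P = 0.043) and for 6 of the named pathway genes. SOCS3 differed by 0.50 (adjusted P = 0.0033), FOS by 0.49 (0.0030), SPRY1 by 0.56 (0.022), EGF by 0.46 (0.021), SHC1 by 0.35 (0.045) and PIK3R1 by 0.30 (0.047). EGF, the founding ligand of the family, was 5.92 ± 0.381 TPM in Hs578T non-BCSCs and 4.88 ± 0.354 in BCSCs, and 15.1 ± 1.08 and 17.7 ± 0.540 in HCC70 (SD, n = 3). SPRY1 was 30.7 ± 0.682 and 24.1 ± 1.23 TPM in Hs578T, and 2.36 ± 0.360 and 2.92 ± 0.355 in HCC70. SOCS3 was 50.4, 51.1 and 49.9 TPM in Hs578T non-BCSCs and 49.5, 51.3 and 49.2 TPM in BCSCs. SOCS3 and FOS kept the call with each of the 12 libraries left out.

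EGF lost the call without Hs578T non-BCSC replicate 1, Hs578T BCSC replicate 2 or HCC70 BCSC replicate 1, with adjusted P of up to 0.062. SPRY1 lost it without Hs578T non-BCSC replicate 1 or 2, Hs578T BCSC replicate 2 or HCC70 BCSC replicate 1, with adjusted P of up to 0.062. SHC1 and PIK3R1 kept it in 2 of the 12 fits that each left out a library, with adjusted P of up to 0.11 for either, and SHC1 lost it with median of ratios (adjusted P = 0.097). The line, its table and its batch cannot be told apart.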

How the results depend on the processing

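The count of members called stayed at 0 in Hs578T and with KIF20A sg1 under every alternative run, and within 1.5 times 9 in the labelled OE comparison. In HCC70 the 2 calls became 0 without the filter on low values, 1 with median of ratios and 0 with the replicate block, and 0 to 1 when a library was left out. With DESeq2 both calls held there and EGFR was called as well (adjusted P = 0.043). The 1 call of the interaction became 0 with median of ratios and with the replicate block, and 0 to 1 with a library left out. Whether libraries of the same number were paired is not given in the sources used here. Deviations of same-numbered libraries correlated at 0.05, -0.06 and -0.05 in Hs578T and 0.01, 0.19 and -0.07 in HCC70. They correlated at -0.05, -0.11 and -0.16 in the depletion experiment and 0.04, 0.06 and 0.01 in the overexpression experiment. Correlations over so few libraries cannot decide whether the samples were paired. The replicate block moved the count of genes called from 374 to 128 in HCC70 and from 830 to 302 in the interaction, and from 953 to 669 in Hs578T. Of the named pathway genes, the block also ended the calls of SOCS3 (adjusted P = 0.051), SPINT1 (0.080) and EFNA1 (0.10) in HCC70, LRIG3 (0.052) in Hs578T, and SHC1 (0.072) and PIK3R1 (0.087) in the interaction. In HCC70, genes called numbered 178 without the filter, 232 with median of ratios, 677 with edgeR (407 higher and 270 lower, against 301 and 73), 1179 with DESeq2 and 32 to 247 with a library left out. In Hs578T they numbered 1644 with edgeR and 342 to 880 with a library left out, and for the interaction 291 to 1225. A gene's value changed sign in 13 cases, none of them of a called gene. EPHA2 in Hs578T became 0.011 with median of ratios, 0.0050 with edgeR and 0.0049 with DESeq2 and ranged from -0.054 to 0.013 with a library left out. With KIF20A sg1, EGFR ranged from -0.019 to 0.14 and HBEGF from -0.25 to 0.095, and ERBB2 in the interaction became -0.036 with median of ratios and ranged from -0.064 to 0.069. Causes of these shifts were not tested. At 15971297 to 22182293 reads per library, the level of EREG and BTC in labelled OE libraries, at 0 to 2 reads each, could only be bounded or given with a wide counting interval.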
